A study of Drosophila melanogaster with 8 samples.

Results

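The Niemann-Pick sterol transport family of the fly consists of Npc1a and Npc1b, a pair of large membrane proteins, and of 8 small soluble proteins named Npc2a to Npc2h. Its members were taken from the deposited gene table by gene symbol alone, without using any measured value. All 10 symbols were found among the 17518 named genes of the table, and 6 of the 10 (Npc1a, Npc2a, Npc2b, Npc2f, Npc2g and Npc2h) had enough reads to pass the filter on low counts and be tested. The other 4 (Npc1b, Npc2c, Npc2d and Npc2e) are described by their counts.

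RNA was sequenced from heads of w1118 adult males, a white-eyed laboratory strain, 1 to 3 d old, that had been kept for 1 day either with food or without it. There were 4 food libraries and 4 starvation libraries, each a pool of heads from a group of flies, and no other genotype or treatment entered the comparison. The study dealt with the genetics of the rise in activity that flies show when food is withheld, and sequenced these libraries to follow the RNA-binding protein gene syp, while the counts cover all genes. A head holds brain, eyes, fat body, blood cells and cuticle, so in these bulk samples fewer cells of a type and less RNA per cell cannot be told apart.

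Flies cannot make sterols and depend on those in the diet. Sterols taken up with lipoproteins are released in late endosomes and lysosomes, where a soluble NPC2 protein binds the free sterol in its lipid-binding pocket (the ML domain) and passes it to the membrane protein NPC1, which moves it towards the rest of the cell. In flies this route supplies membranes and also the precursor of the steroid hormone ecdysone, and some of the soluble members are known to bind bacterial cell wall products as well.

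Library totals lay between 47936038 and 53168449 counts. Counts were scaled with edgeR's TMM factors and expressed as CPM, the number of counts in each 1e6 counts of a library, and levels of different genes were compared after division by exonic length (CPM per kb). Starvation replicate 3 stood apart. Its log2 CPM correlated with the other starvation libraries at 0.980 to 0.984 (12048 genes, against 0.990 to 0.992 among those libraries), and 21.9% of its counts were mitochondrial, where the remaining 7 libraries had 14.1% to 16.6%. In this library short genes were high and long genes were low for their condition (Spearman's rho of the deviation from the condition mean with exonic length of -0.54, across genes, against 0.26 to 0.36 in the other starvation libraries). Deviations balance out within a condition, so the other starvation libraries are no independent reference. In the food libraries this rho was -0.105 to 0.161. Values with and without starvation replicate 3 are given for Npc1a, Npc2a, Npc2b, the ratio of Npc1a to Npc2a, Got2 and imd. Other values rest on all libraries unless stated.

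Under starvation, the tandem neighbours Npc2g and Npc2h were the members that fell, to 0.19 and 0.164 of their levels with food. Npc1a, Npc2a and Npc2b, which were also abundant, did not pass the test, and the 95% intervals of their log2 fold changes reached no further than -0.271 and 0.344. Of the members tested, 2 were called lower and 0 higher (at least a 2-fold change, with an adjusted p below 0.05 in the quasi-likelihood test of edgeR). Over all 12048 genes tested, 6.3% were called, 5.37% lower and 0.93% higher.

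**Figure D1:**
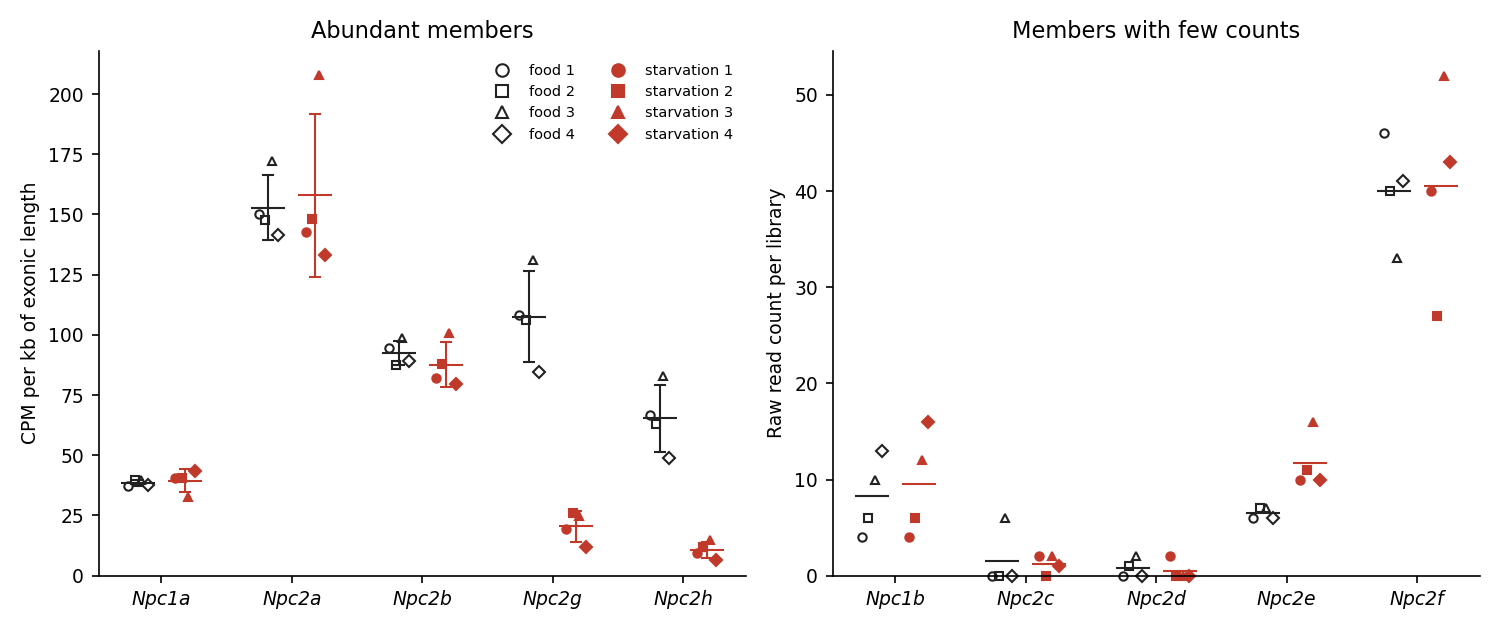
The left panel plots CPM per kb on a linear axis for Npc1a, Npc2a, Npc2b, Npc2g and Npc2h, and the right panel plots raw counts for Npc1b, Npc2c, Npc2d, Npc2e and Npc2f, with 1 symbol per library (open, food; filled, starvation) and a bar at the mean (with SD in the left panel only). The 4 starvation libraries lie below all food libraries for Npc2g and Npc2h, while the conditions overlap for Npc1a, Npc2a and Npc2b.

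Npc1a is the broadly expressed fly NPC1, needed for sterol trafficking and for ecdysone synthesis in the larva. It lies on chromosome 2L from 10213812 to 10221216 (release 6 of the Drosophila genome), with 5198 exonic bases and 7 mRNAs in RefSeq. Its level was 194, 207, 206 and 196 CPM in food replicates 1 to 4 and 212, 211, 170 and 227 CPM in starvation replicates 1 to 4. Starvation replicates 1, 2 and 4 lay above all food libraries and replicate 3 lay below them, so the conditions overlapped. The log2 fold change of starvation against food was 0.03 ± 0.0962 (SE, n = 4 per condition; 95% interval -0.183 to 0.242, adjusted p = 0.86 in edgeR). Without starvation replicate 3 it was 0.11 ± 0.0501 (adjusted p = 0.11).

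Npc1b is the NPC1 of the midgut, where it takes up dietary sterol. On chromosome X, from 20934869 to 20939503, it had 4, 6, 10 and 13 counts in the food libraries and 4, 6, 12 and 16 counts in the starvation libraries. The conditions overlapped over nearly their whole range. These counts came to 0.0864 to 0.271 CPM with food and 0.0801 to 0.313 CPM under starvation. The summed level of the 9 midgut markers (most of them digestive enzymes, such as alphaTry, Jon65Aiii and Mal-A1) was 3.98 to 4.56 CPM with food and 4.05 to 5.01 CPM under starvation. Of these 9 markers 5 were tested, and 0 passed an adjusted p of 0.05 in edgeR (0 at an unadjusted p under 0.05).

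Npc2a was the most abundant soluble member per exonic base. It acts together with Npc2b in sterol homeostasis, and loss of both is known to impair ecdysone synthesis in the larva. Npc2a lies on chromosome 2L from 1988290 to 1988940, with 651 exonic bases and a single mRNA. Its level was 97.7, 96.2, 112 and 92.1 CPM in the food libraries and 92.8, 96.4, 135 and 86.7 CPM in the starvation libraries. Starvation replicate 3 was the highest of the 8 libraries and starvation replicate 4 the lowest, so the starvation libraries enclosed the food libraries. The log2 fold change was 0.05 ± 0.134 (95% interval -0.25 to 0.344, adjusted p = 0.84 in edgeR), and without starvation replicate 3 its sign turned, to -0.11 ± 0.0709 (adjusted p = 0.25).

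Npc2b lies on chromosome 3R from 14089517 to 14092425, with 922 exonic bases. Its level was 87.0, 80.6, 91.1 and 82.4 CPM with food and 75.8, 81.1, 92.7 and 73.4 CPM under starvation. Starvation replicate 3 was again the highest library, and the conditions overlapped. The log2 fold change was -0.08 ± 0.0873 (95% interval -0.271 to 0.115, adjusted p = 0.58 in edgeR). Without starvation replicate 3 it was -0.15 ± 0.0593 (adjusted p = 0.075), and with upper-quartile factors, which raised the median of all genes from -0.01 to 0.10, its sign turned, to 0.04.

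Npc2g and Npc2h lie side by side at the end of chromosome 3R, from 30744605 to 30745263 and from 30745479 to 30746290, with 215 bases between them and a common span of 1686 bases. Npc2g has 659 exonic bases and Npc2h 812. Npc2h is known to bind bacterial cell wall products, and the role of Npc2g is less studied. The way reads that match both genes were counted is not given in the sources used here, so a share of reads could have been assigned to the wrong neighbour.

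Npc2g was at 71.4, 69.99, 86.3 and 55.7 CPM in food replicates 1 to 4 (70.9 ± 12.5, SD, n = 4) and at 12.7, 17.0, 16.3 and 7.90 CPM in starvation replicates 1 to 4 (13.5 ± 4.17). The conditions did not overlap, as was so for 31.2% of all genes tested, and the lowest food library was more than 3 times the highest starvation library. The raw counts behind these levels were 2667 to 4425 per food library and 404 to 890 per starvation library. The log2 fold change was -2.39 ± 0.22 (95% interval -2.88 to -1.91, adjusted p = 2.2e-05 in edgeR), a level 5.25-fold lower under starvation. Of the 12048 genes, 93 had a lower log2 fold change.

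Npc2h was at 54.2, 51.0, 67.3 and 39.5 CPM in the food libraries (53.0 ± 11.4) and at 7.77, 9.67, 11.9 and 5.30 CPM in the starvation libraries (8.67 ± 2.82). Again no starvation library reached the food range. Counts ran from 1893 to 3451 with food and from 271 to 610 under starvation. The log2 fold change was -2.61 ± 0.232 (95% interval -3.13 to -2.10, adjusted p = 1.8e-05 in edgeR), a level 6.11-fold lower under starvation, and 68 genes had a lower one.

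**Figure D2:**
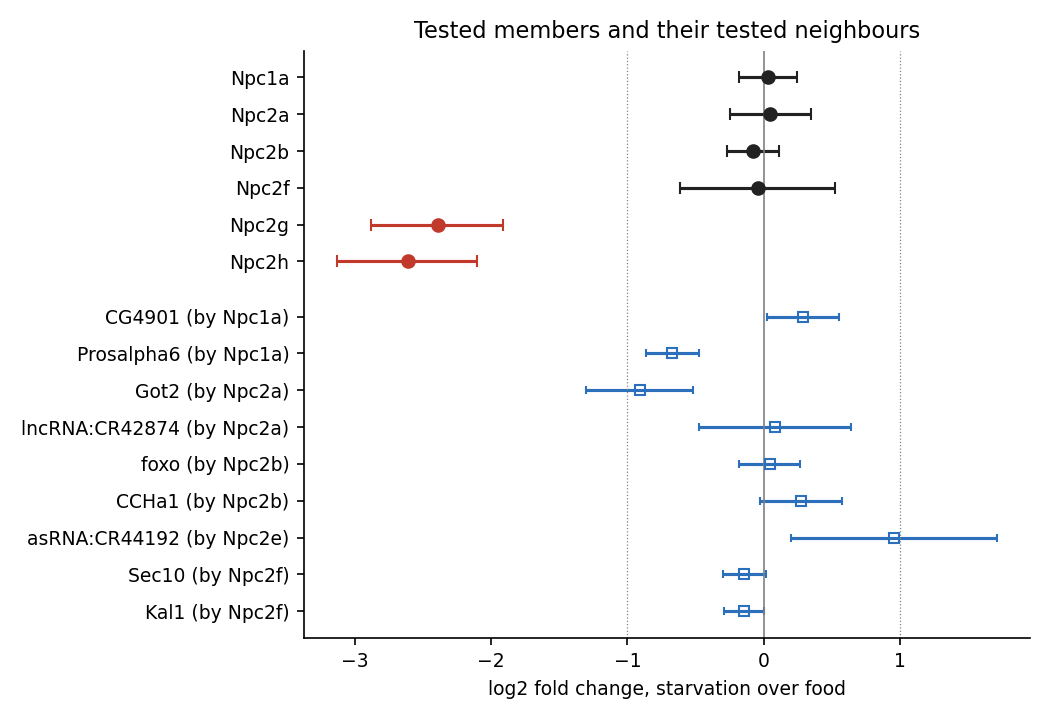
Log2 fold changes of starvation against food with 95% intervals (edgeR) are shown for the 6 members tested (circles, red where called) and for their tested neighbouring genes (blue squares), with dotted lines at -1 and 1. Npc2g at -2.39 and Npc2h at -2.61 lie left of -1 with their whole intervals, and the intervals of the other 4 members include 0.

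The pair moved together within each condition as well as between them. Food replicate 3 had the most and food replicate 4 the least of both genes, and starvation replicate 4 had the least of both among the starved libraries. The highest starved library differed, replicate 2 for Npc2g and replicate 3 for Npc2h. Over the 8 libraries the log2 CPM of the pair had a Pearson r of 0.997, and 0.956 once each condition's mean was taken out (a description over libraries that share their depth and their tissue composition). Among all pairs of tested members, r within conditions ran from -0.833 for Npc1a and Npc2a to that 0.956. Npc2a and Npc2b, on different chromosomes, had 0.951, so such a value was not particular to the neighbours. The number of Npc2h counts per Npc2g count was 0.759, 0.729, 0.780 and 0.710 in the food libraries and 0.610, 0.567, 0.734 and 0.671 in the starvation libraries. Starvation replicates 1, 2 and 4 lay below every food library, and replicate 3 lay within the food range. The mean log2 ratio was -0.43 ± 0.0604 (SD, n = 4) with food and -0.64 ± 0.162 under starvation, a difference of -0.21 (exact two-sided permutation test, p = 0.0857, or 0.171 adjusted over the 2 ratios tested, with 0.0286 as the smallest p that 4 against 4 libraries allow).

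**Figure D3:**
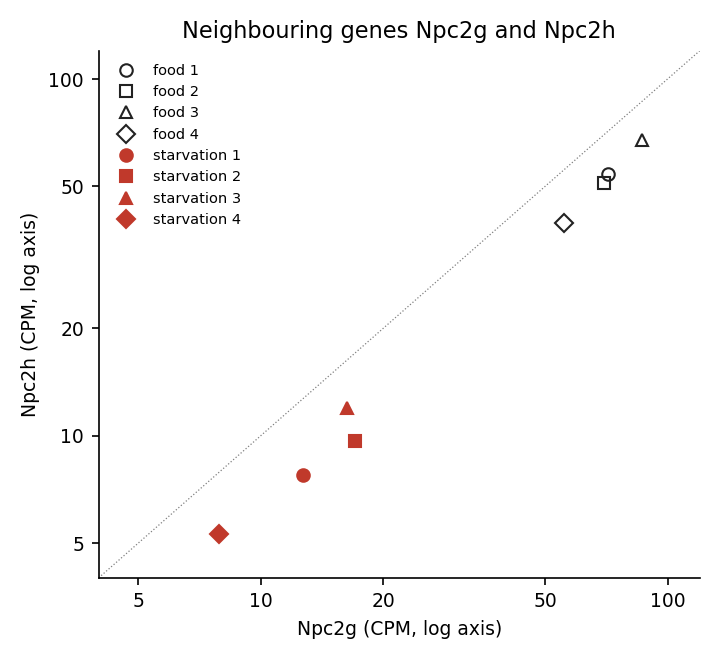
Each point is 1 library, with Npc2g CPM on the horizontal and Npc2h CPM on the vertical log axis (open, food; filled, starvation) and a dotted line where the levels are equal. All 8 libraries lie below the line, the food libraries at 55.7 to 86.3 CPM of Npc2g and the starvation libraries at 7.90 to 17.0.

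Npc2f, a soluble member of unstudied role on chromosome 3R from 24137895 to 24140936, was close to the lower end of what could be tested. It had 46, 40, 33 and 41 counts with food and 40, 27, 52 and 43 counts under starvation, and both the highest and the lowest value came from starvation. The log2 fold change was -0.04 ± 0.257 (adjusted p = 0.92 in edgeR), with a 95% interval from 0.654 to 1.44 of the food level. Changes within that interval cannot be told from no change here, and the interval is not a limit of detection.

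Npc2e, Npc2d and Npc2c lie in this order within 7805 bases of chromosome 3R, from 10053332 to 10061136, and all were near the floor. Npc2e, which is known to bind bacterial cell wall products, had 6, 7, 7 and 6 counts in the food libraries and 10, 11, 16 and 10 counts in the starvation libraries. These conditions did not overlap, and Npc2e was not tested because of its low counts. When the filter was dropped or loosened, or another library left out, Npc2e entered 7 further fits, in which the log2 fold change was 0.76 to 0.89 and the adjusted p 0.14 to 0.28 in edgeR. Its position overlaps that of the antisense transcript asRNA:CR44192 (88 counts over the 8 libraries, log2 fold change 0.96 ± 0.342, adjusted p = 0.062 in edgeR). Whether counting used strand is not given in the sources used here, so reads of this pair cannot be told apart.

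Npc2d had 0, 1, 2 and 0 counts with food and 2, 0, 0 and 0 counts under starvation. Npc2c had 0, 0, 6 and 0 counts with food, all from food replicate 3, and 2, 0, 2 and 1 counts under starvation. Neither gene can be compared at this depth, where a library with 0 counts still allows a level of up to 0.0575 to 0.0648 CPM (3 counts per library, counting error only). Npc2c overlaps asRNA:CR45205, which had 12 counts in all.

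Per exonic base, the order of levels with food was Npc2a (153 ± 13.4 CPM per kb, SD, n = 4), Npc2g (108 ± 19.0), Npc2b (92.5 ± 5.12), Npc2h (65.3 ± 14.1), Npc1a (38.6 ± 1.29) and, far below, Npc2f (1.15), Npc2e (0.200), Npc1b (0.0422), Npc2c (0.0413) and Npc2d (0.0222). The ranges over libraries of Npc2a (141 to 172 CPM per kb) and Npc2g (84.5 to 131) did not meet, whereas those of Npc2g and Npc2b (87.4 to 98.8) overlapped. Under starvation the order became Npc2a (158 ± 33.9 CPM per kb), Npc2b (87.6 ± 9.34), Npc1a (39.4 ± 4.68), Npc2g (20.5 ± 6.33) and Npc2h (10.7 ± 3.47). The range of Npc1a was then 32.7 to 43.6 CPM per kb, above the highest Npc2g library at 25.9, so the membrane protein's transcript passed those of both neighbours.

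The summed level of the soluble members was 420 ± 50.3 CPM per kb with food and 278 ± 50.8 under starvation. The sum ranged from 365 to 486 CPM per kb with food and from 233 to 350 under starvation, without overlap. Npc2g and Npc2h together made up 36.5% to 44% of it with food and 7.95% to 13.7% under starvation. The share of Npc2a was 35.4% to 38.7% with food and 53.9% to 59.4% under starvation, although its own level did not pass the test. Shares of a sum move against each other, so the rise in the share of Npc2a is not a separate result. The fall of the sum holds the falls of Npc2g and Npc2h and is not separate from them either.

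**Figure D4:**
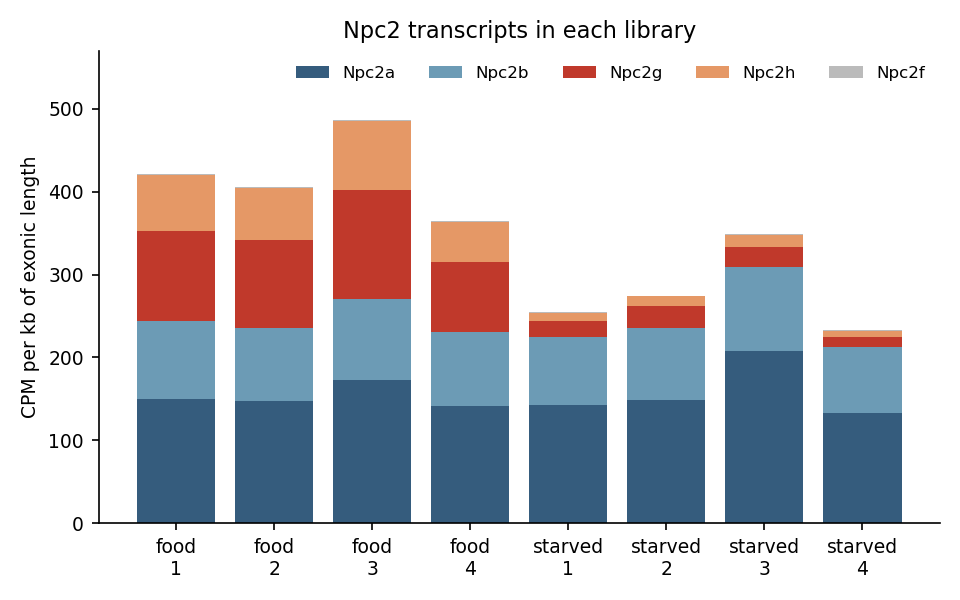
Stacked bars show CPM per kb of Npc2a, Npc2b, Npc2g, Npc2h and Npc2f in each of the 8 libraries, from 0. The segments of Npc2g and Npc2h shrink from 36.5% or more of the sum in the food libraries to 13.7% or less in the starvation libraries.

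Since NPC2 hands sterol to NPC1, the number of Npc1a counts per Npc2a count was compared within libraries. The ratio was 1.98, 2.15, 1.83 and 2.13 with food and 2.28, 2.19, 1.26 and 2.62 under starvation. Replicates 1, 2 and 4 under starvation exceeded every food library and replicate 3 lay below them. The mean log2 ratio was 1.01 ± 0.108 (SD, n = 4) with food and 1.01 ± 0.466 under starvation (exact two-sided permutation test, p = 1, with 1 also after adjustment over the 2 ratios). Without starvation replicate 3 the difference was 0.22. The trend with exonic length was fitted to deviations from the mean of all libraries of both conditions, so it also holds any trend between the conditions. In that library it came to -0.30 on the log2 scale at the length of Npc1a and 0.21 at that of Npc2a. The genes themselves deviated by -0.26 and 0.42 from the mean of their condition, which is another reference. With the length trend taken out of each library, the log2 fold change was 0.06 ± 0.0498 for Npc1a (adjusted p = 0.36 in edgeR) and 0.09 ± 0.0801 for Npc2a (adjusted p = 0.45).

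The tested genes next to the members had log2 fold changes between -0.91 and 0.29 (0.96 for the antisense partner of Npc2e), none of them called with all libraries in. Npc2g and Npc2h are flanked by CG15543, 130 bases before Npc2g, with 15 counts over all libraries, and lncRNA:CR43238, 394 bases after Npc2h, with 2 counts, neither of which could be tested. Next to Npc2a, 531 bases away, Got2, a mitochondrial aspartate aminotransferase, fell by 0.91 on the log2 scale (SE 0.176, adjusted p = 0.003), from 480 ± 63.5 to 256 ± 65.9 CPM. Without starvation replicate 3 its log2 fold change was -1.052 (adjusted p = 0.00045 in edgeR), which met the rule for a call. Next to Npc1a, Prosalpha6, a proteasome subunit, fell by 0.67 (SE 0.0882, adjusted p = 0.00025). The gene CG4901, on the other side of Npc1a, had a log2 fold change of 0.29 (adjusted p = 0.11). Beside Npc2b lay foxo, a transcription factor of the insulin pathway (0.04, adjusted p = 0.8), and CCHa1, a peptide hormone (0.27, adjusted p = 0.18). The neighbours of Npc2f, Sec10 and Kal1, were both at -0.14 (adjusted p = 0.19 and 0.15), and lncRNA:CR42874 beside Npc2a was at 0.08 (adjusted p = 0.85). The remaining neighbours, CG11227 and Ser6 beside Npc1b, CR33629-RA beside Npc2c and Fancl beside Npc2e, had between 0 and 58 counts in all and were not tested.

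Levels of several other genes followed Npc2h across the 8 libraries. The 5 genes with the highest Pearson r of log2 CPM were asRNA:CR45485 (0.9993), CG9914 (0.9991), GstE9 (0.9991), Obp99c (0.9989) and Ser7 (0.9988). Most of such an r comes from the difference between the conditions. Within conditions r was 0.983 to 0.991 for these 5, over libraries that share depth and tissue composition. The first pair overlap each other on chromosome X and could share reads. Obp99c, an odorant-binding protein, went from 561 ± 97.5 to 114 ± 38.2 CPM (log2 fold change -2.31), and GstE9, a glutathione S-transferase, from 197 ± 35.9 to 48.6 ± 12.3 CPM (-2.02).

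Markers of the fat body, the tissue that stores fat and makes lipoproteins, moved in the same direction as Npc2g and Npc2h. For this and the cell types below, the shares over all genes tested are 16.7% lower and 10% higher at an adjusted p under 0.05. The share of all genes called lower is 5.37%. Of the 8 fat body markers, all tested, 6 were lower at an adjusted p under 0.05, 5 of them called, with a median log2 fold change of -1.11 and values between -8.03 (Lsp2, a storage protein) and -0.46 (Lsp1gamma, another storage protein), and none was at 0 in all libraries. Their summed level was 6447 to 10620 CPM with food and 974 to 1355 CPM under starvation. With food most of it came from Lsp2 (3904 CPM on average) and apolpp (3233 CPM), and under starvation most came from FASN1 (547 CPM), a fatty acid synthase, and apolpp (463 CPM). As a percentage of the food mean, the sum was 103, 97.2, 124 and 75.4 in the food libraries, where Npc2h was at 102, 96.2, 127 and 74.6. Under starvation the sum was at 13.5, 15.8, 11.4 and 12.5 and Npc2h at 14.7, 18.2, 22.5 and 9.998. Starvation replicate 3 thus had the lowest marker sum and the highest Npc2h, but it is also the library with the strong length trend. At the length of Npc2h the trend, fitted as above, came to 0.20 on the log2 scale in that library. Without the trend the log2 CPM of Npc2h was 3.38 in starvation replicate 3 and 3.36 in starvation replicate 2. The marker sum was not computed without the trend.

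Hemocyte markers (blood cell genes such as Hml, NimC1 and Sr-CI) also fell, 5 of 5 at an adjusted p under 0.05 and 4 called, with a median of -2.15, although the adjusted p of Pxn (log2 fold change -0.37, adjusted p = 0.041 in edgeR) was 0.064 to 0.1 with upper-quartile factors or without food replicate 1, 2, 3 or 4 or starvation replicate 2, at log2 fold changes of -0.39 to -0.25. Their sum was 225 to 360 CPM with food and 112 to 180 CPM under starvation. The largest part of it came from Pxn, at 138 CPM on average with food and 107 CPM under starvation. Hml, NimC1, Sr-CI and srp fell further than this sum, with log2 fold changes of -2.66, -2.15, -2.16 and -1.23. The 3 tested oenocyte markers (Cyp4g1, eloF and FASN3) were called lower, with a median of -1.43 and a sum of 80.2 to 103 CPM with food and 28.0 to 44.2 under starvation. Of these, eloF was near the floor, at 0.405 CPM with food and 0.0683 CPM under starvation. Glial markers were lower in 4 of 5, none by 2-fold (median -0.49). Photoreceptor markers were higher in 4 of 8 (median 0.28), whereas 0 of 5 neuron and 0 of 4 testis markers passed the test in edgeR, none of them at an unadjusted p under 0.05. The part of these cell types in the fall of Npc2g and Npc2h was not tested.

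**Figure D5:**
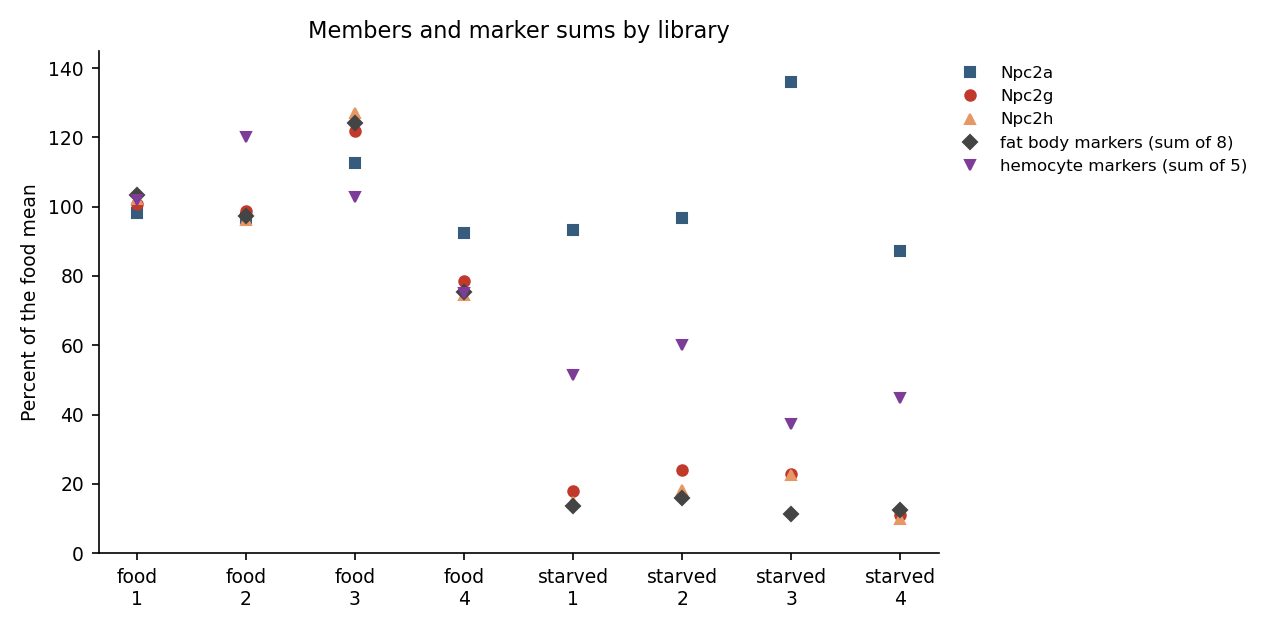
Levels of Npc2a, Npc2g, Npc2h and the sums of 8 fat body and 5 hemocyte markers are plotted for each library as a percentage of their food mean. Npc2g and Npc2h lie between 9.998% and 24.1% in the starvation libraries, the fat body sum between 11.4% and 15.8%, the hemocyte sum between 37.3% and 60.1%. Pxn, with a log2 fold change of -0.37, made up the largest part of the hemocyte sum. With food, Lsp2 and apolpp made up most of the fat body sum.

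Other genes of sterol handling were read from lists by function, where the median log2 fold change over all 12048 genes tested was -0.01 and, at an adjusted p below 0.05, 10% of genes had risen, 16.7% had fallen and 26.7% had done either. Among 18 sterol esterases, carriers and sensors, 4 were higher and 2 lower, with a median of 0.16. The largest rise was that of mag, a lipase that also splits sterol esters in the gut, from 0.385 ± 0.127 to 2.99 ± 2.25 CPM (log2 fold change 2.96, adjusted p = 0.0028 in edgeR). Lip1, a lipase, fell from 1.83 to 0.549 CPM (-1.73, adjusted p = 0.005), and ScpX, a peroxisomal sterol carrier protein and thiolase, fell by 0.70 on the log2 scale, from 75.5 to 46.4 CPM (adjusted p = 0.00018). SCAP, the escort of the lipid sensor SREBP, rose by 0.40 (adjusted p = 0.0066), and SREBP itself was at 0.24 (adjusted p = 0.063).

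Of 5 genes with a sterol-sensing domain or related to patched, as NPC1 proteins are, 2 were higher and 0 lower, SCAP and Ptr (0.52, adjusted p = 0.0053). Of 9 tested genes of ecdysteroid synthesis, which the Npc1a and Npc2 route feeds, 2 were higher and 0 lower. These were shd, the enzyme that makes the active hormone, from 0.498 to 1.41 CPM (1.49, adjusted p = 0.0011), and dib, an upstream hydroxylase (0.41, adjusted p = 0.033), whose adjusted p was 0.051 to 0.1 when food replicate 1, 2, 3 or 4 or starvation replicate 1 was left out, at log2 fold changes of 0.36 to 0.44. Of 22 tested lysosomal hydrolases and membrane proteins, the compartment of the family, 2 were higher and 5 lower, with a median of -0.01. The higher genes were Lerp and mag, and mag was already counted among the sterol esterases. LManII, a lysosomal mannosidase, fell from 153 ± 26.2 to 52.7 ± 9.97 CPM (-1.54, adjusted p = 4.1e-05), and Lerp, a sorting receptor for lysosomal enzymes, rose by 0.47 (adjusted p = 0.00051).

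Lipoproteins and their receptors, which bring sterol to the lysosome, were lower in 6 of 8 and higher in 1, with a median of -0.72. Of the lower genes, apolpp, Apoltp and Mtp are also among the fat body markers above, so their falls are not separate results. The lipophorin precursor apolpp went from 3233 ± 449 to 463 ± 77.5 CPM (-2.81, adjusted p = 1e-06), and the receptor LpR1 rose by 0.73. Of 18 tested genes of the Imd pathway, the response to bacteria with which Npc2a, Npc2e and Npc2h have been linked, 2 were higher and 3 lower, with a median of -0.02. The antimicrobial peptide AttC fell from 4.77 to 0.376 CPM (-3.66, adjusted p = 1.4e-05) and the adaptor imd by 0.84 (adjusted p = 0.0011), whereas pirk, an inhibitor of the pathway, rose by 0.72 (adjusted p = 0.0026). Without starvation replicate 3 the log2 fold change of imd was -1.005 (adjusted p = 1.5e-05 in edgeR), which met the rule for a call.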

How the data were processed

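Heads of w1118 males were compared between food and starvation (4 libraries each). Per the study's methods, the authors mapped paired-end poly(A)+ reads with STAR (2.6.1b in the submitters' processing notes), ran ASpli on the files of each sequencing batch to assess batch effects, and then merged the batches of a sample. The tool that counted reads for the deposited table is not given in the sources used here. The deposited values are raw counts, without normalization, with gene coordinates on release 6. Samples were grouped by their titles, and 0 columns lacked a group. One row without a gene symbol (0.0042% to 0.0054% of the counts of a library) was left out. The table holds no comparison columns of the authors.

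From the counts, edgeR 4.0.16 (R 4.3.3) gave TMM factors, a filter on low counts (filterByExpr) and quasi-likelihood tests for 12048 of 17518 genes, with Benjamini-Hochberg adjustment over all of them. A gene was called where the adjusted p was below 0.05 and the log2 fold change was 1 or more in size. Standard errors were derived from each F statistic. Ratios within a library were compared with exact permutation tests (scipy 1.17.1). At 47936038 to 53168449 counts per library the biological coefficient of variation was 0.138. The p-values measure the spread between samples the study calls biological.

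Alternatives were DESeq2 1.42.0, the likelihood ratio test, limma-voom (limma 3.58.1), RLE and upper-quartile factors, other filters, a replicate block, leaving out each library or the 10 most abundant genes, taking out the trend with exonic length, and a test against 2-fold. The trend joined with the block, the trend in the ratios, and the 2-fold test without starvation replicate 3 were chosen after seeing the data.

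Named genes are the 10 members, their nearest and overlapping genes, the 5 genes most correlated with the tested member of largest change, and, of each list, every called gene, the 2 with the smallest adjusted p and the most abundant one (only some are described). SREBP, the markers named as examples and other genes outside this rule were chosen after their values were seen. The members and lists were chosen with earlier results of these data known. Gene positions and transcript numbers were matched to RefSeq (Release 6 plus ISO1 MT) for 10 of 10 members. Sequences, promoter motifs, splicing and protein levels were not analysed here.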

Additional observations from a re-analysis of the deposited data

Results flagged for a closer look

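Among 28 sets of 4 libraries of 1 condition examined for members and related values, 3 held a library whose gap to the nearest other was a larger share of the whole range than Dixon's critical value for 4 values. Chance gives about 1 in 20, or 1.4 sets here. All 3 were members near the floor. Npc2c was at 0.117 CPM in food replicate 3 and at 0 in the other food libraries. Npc2d was at 0.0401 CPM in starvation replicate 1 and at 0 in the other starvation libraries, where 2 counts made the difference. Npc2e was at 0.313 CPM in starvation replicate 3, against 0.196 to 0.211 CPM in the other starvation libraries, from 16 counts against 10 or 11.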

How the results depend on the processing

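The number of members called was 2 under all 21 alternatives, always Npc2g (log2 fold change -2.53 to -2.18, largest adjusted p 0.00098) and Npc2h (-2.80 to -2.40, largest adjusted p 0.00045). Leaving out starvation replicate 4, which had the least of both, gave the smallest falls. Npc1a ranged from 0.0013 to 0.14, Npc2a from -0.11 to 0.17, Npc2b from -0.15 to 0.04 and Npc2f from -0.19 to 0.12, none past the test. Over all genes, 759 were called (112 higher, 647 lower). The test against 2-fold called 273 (28 higher, 245 lower), and the same test without starvation replicate 3 called 294 (25 higher, 269 lower). Of the genes in the function lists 8 were called, and these tests called 3 and 2. Those lists had 18, 5, 9, 22, 8 and 18 tested genes, some of them shared between lists. The 759 genes called over all genes were 6.3% of the 12048 tested. Leaving out 1 library gave 689 to 810 genes (100 to 131 higher, 559 to 710 lower), 8 to 10 listed genes and 2 members. The difference in the Npc2h to Npc2g log2 ratio was -0.28 to -0.15 with 1 library left out, and that of Npc1a to Npc2a -0.13 to 0.22. Deviations of same-numbered libraries of the conditions correlated at r = 0.0188 to 0.169, against -0.127 to 0.0827 for libraries of unlike number. The numbers are not stated to mark a shared day, so they were not read as pairs, and the replicate block was an alternative. With the replicate block, 760 genes were called, 737 of them shared, and Npc2g was at -2.43 (SE 0.119) and Npc2h at -2.64 (SE 0.102). Without the block these SE were 0.22 and 0.232. The causes of these shifts were not tested. Counting depth limited Npc1b, Npc2c, Npc2d, Npc2e and Npc2f.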
